A study of Mus musculus with 12 samples.

Results

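Cells treated with SA, the agent used in this study to inhibit ALAD and so lower protoporphyrin IX, were compared with control cells of the same culture series. The comparison rested on 6 of the 12 libraries, 3 with SA and 3 controls, and on the 11920 of 55487 listed genes that reached 1 TPM (transcripts scaled to a fixed total per library) in at least 3 libraries. The cells were G1E-ER4, a mouse erythroid progenitor line that lacks a functional Gata1 gene and carries a fusion of GATA1 with the ligand-binding part of the estrogen receptor, through which estradiol switches GATA1 on and maturation starts. All 4 groups were grown with erythropoietin and Kit ligand and received 100 nM β-estradiol for 24 h: control cells without a further agent, cells with 50 µM DTPA (the zinc-deficient group), cells with 50 µM DFO (the iron-deficient group) and cells with 0.2 mM SA (the group described as low in protoporphyrin IX). The titles and treatment tags name SA for this last group, while the treatment protocol names DFO for ALAD inhibition. The titles were followed, and which agent was used could not be checked in these data beyond the direct comparison of the SA and DFO libraries below. The groups come from 1 cell line, with the GATA1 fusion in control and treated cells alike, so any result here holds for that line at 24 h. The 3 libraries of a group are labelled biological replicates. The p-values set group differences against the spread between replicates, pooled over the 4 groups of all 12 libraries.

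Heme is made in the mitochondrion and cytosol from glycine and succinyl-CoA. ALAS2 makes the first precursor in red cell precursors, ALAD joins molecules of it into porphobilinogen, and ferrochelatase (FECH) finally inserts iron into protoporphyrin IX. Heme is known to restrain HRI (Eif2ak1), the kinase that phosphorylates eIF2α in erythroid cells when heme is short, and phosphorylated eIF2α favours translation of the transcription factor ATF4. Heme also releases the repressor BACH1 from its DNA sites, where NRF2 and other partners of small MAF proteins can bind.

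The promoter sequences below are shown because they belong to ATF4 targets and tRNA synthetases that rose, to BACH1 and NRF2 targets that fell, and to the globin with the largest fold change. They were read from RefSeq promoter windows of build GRCm38.p6, 250 bases before each start, which were found for 65.8% of tested genes. Stretches that overlap an annotated exon were not shown. Capitals mark a match to TGATGNAA (ATF4 with a C/EBP partner) in Herpud1 and Gars, and to TGACNNNGC (NRF2 or BACH1 with a small MAF) in the others, searched on both strands and printed as it reads on the strand of the gene.
Herpud1: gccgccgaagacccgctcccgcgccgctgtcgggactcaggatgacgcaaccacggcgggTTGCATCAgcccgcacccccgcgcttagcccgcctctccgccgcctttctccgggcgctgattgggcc
Gars: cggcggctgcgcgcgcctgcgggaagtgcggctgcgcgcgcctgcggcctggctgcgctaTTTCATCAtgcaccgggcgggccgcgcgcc
Gclm: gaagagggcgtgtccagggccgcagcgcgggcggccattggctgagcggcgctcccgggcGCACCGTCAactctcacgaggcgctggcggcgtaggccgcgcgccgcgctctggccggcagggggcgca
Prdx1: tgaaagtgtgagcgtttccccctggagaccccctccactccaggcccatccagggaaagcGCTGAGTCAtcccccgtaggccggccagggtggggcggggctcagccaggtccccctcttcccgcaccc
Hbb-y: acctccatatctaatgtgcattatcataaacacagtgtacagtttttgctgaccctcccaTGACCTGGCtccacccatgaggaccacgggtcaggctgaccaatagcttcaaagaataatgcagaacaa
The stretches lie at chr8:94386257-94386384 (plus strand) for Herpud1, chr6:55037911-55038000 (plus) for Gars, chr3:122245363-122245491 (plus) for Gclm, chr4:116685406-116685534 (plus) for Prdx1 and chr7:103853261-103853389 (minus) for Hbb-y. TGATGNAA occurred in 4 of the 20 ATF4 target genes with a window (20%) and in 3 of 13 cytosolic tRNA synthetase genes (23.1%), against 2.24% of all tested genes with a window. TGACNNNGC occurred in 6 of 20 BACH1 and NRF2 genes (30%), in 7 of 20 ATF4 targets (35%) and in 4 of 9 globin genes (44.4%), against 14.1% of tested genes. Its first letters are shared with the AP-1 motif TGACTCA, so the matches overlap in part. Got1 held a TGATGNAA match and Hbq1a a TGACNNNGC match, both outside annotated exons. Neither gene passed the test, and their stretches are not shown. All these matches are descriptions of the letters in the window and do not show binding.

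The libraries held between 20932085 and 23711398 recovered reads in these groups. Erythroid marker genes were abundant: Hba-a1 was at 11589 ± 563 TPM in control and 8399 ± 305 with SA (SD, n = 3), and Klf1 at 661 ± 2.08 and 636 ± 23.3. Of 22 mast and myeloid markers 21 stayed below 1 TPM in all 6 libraries and 14 were listed at 0. All 15 lymphoid markers stayed below 1 TPM, 11 of them at 0. Of 14 megakaryocyte markers 9 stayed below 1 TPM and 7, Pf4 among them, were listed at 0. The summed level of the megakaryocyte list was between 29.3 and 32.4 TPM in control and between 27.6 and 29.8 TPM with SA, and none of its 5 tested members passed the test, though 2 were called lower with median-of-ratios scaling. The share of TPM in globin genes was 3.70% ± 0.274 in control and 2.05% ± 0.114 with SA, and ribosomal protein genes 8.43% ± 0.123 and 9.86% ± 0.113. In bulk RNA, fewer cells of a kind and less RNA per cell cannot be told apart.

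SA changed many genes by small amounts and few by large ones. In the limma fit of log2(TPM + 1) over all 12 libraries, 2643 genes (22.2% of those tested) passed a Benjamini-Hochberg adjusted p of 0.05, 1839 of them higher with SA (15.4%) and 804 lower (6.74%). The median absolute log2 fold change among them was 0.22, 44.0% were below 0.2, and 265 reached 0.5, with 177 higher and 88 lower. At least a doubling on the log2 scale was found for 16 genes higher (0.134%) and 25 lower (0.21%). The split between higher and lower depended on the scaling. With median-of-ratios scaling, which lowered the median log2 fold change of all genes by 0.05, 1125 genes were higher (9.44%) and 1624 lower (13.6%), so 40.9% of called genes were higher in place of 69.6%. All 804 lower genes and 1125 of the 1839 higher ones were called the same way under both, as were 249 of the 265 with a log2 fold change of 0.5 or more. Log2 fold changes below are on the log2(TPM + 1) scale, which understates the change of genes near 1 TPM, and folds are ratios of group means in TPM.

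**Figure D1:**
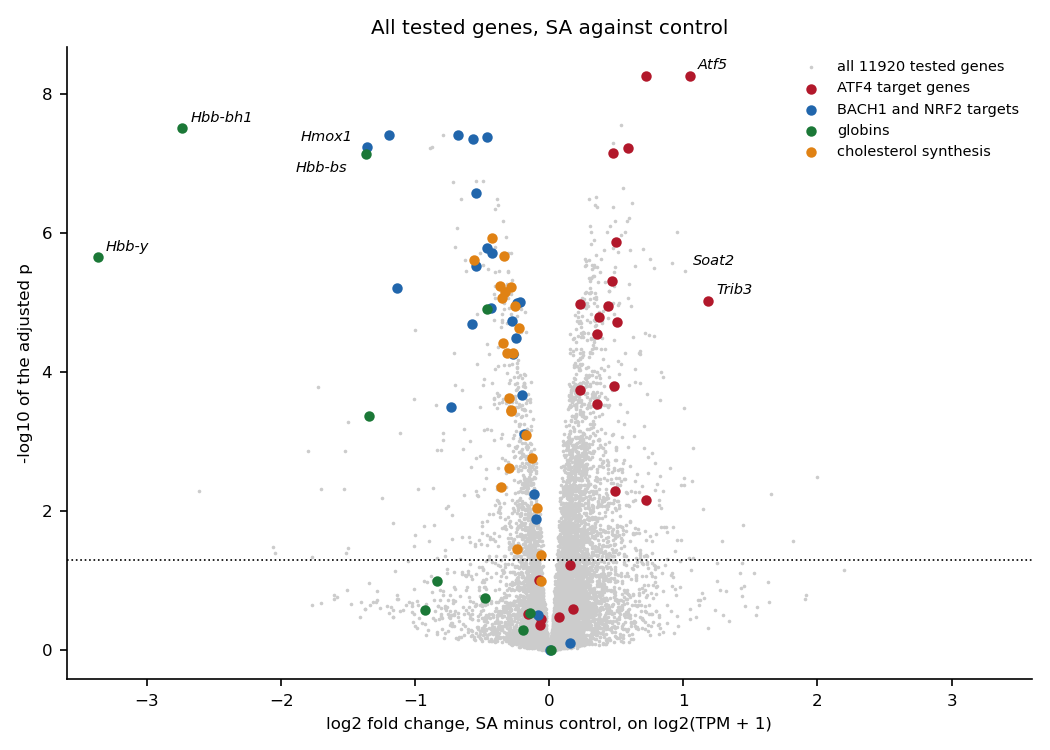
Log2 fold change (x axis, SA minus control, on log2(TPM + 1)) against the negative log10 of the adjusted p (y axis) for the 11920 tested genes in grey. Coloured points are 4 gene lists and the dotted line marks an adjusted p of 0.05. The globins Hbb-y and Hbb-bh1 lie farthest to the left among the coloured points, at -3.37 and -2.74, and Trib3 farthest to the right, at 1.18.

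The genes of heme synthesis itself moved little. Of the 9 enzymes 2 were higher with SA (22.2%, against 15.4% of all tested genes) and 5 lower (55.6%, against 6.74%). The median log2 fold change was -0.06, against 0.05 over all tested genes. Alad, which encodes the enzyme that SA is used to inhibit, was at 670, 653 and 682 TPM in the control libraries and at 623, 631 and 636 TPM with SA. The SA values were all below the control values, by little, at a log2 fold change of -0.08 ± 0.03 (SE) and an adjusted p of 0.0367. This call was lost in 7 of 17 alternatives, among them each fit without 1 library other than control replicate 2, with adjusted p between 0.0631 and 0.128 in those 5 fits. The messenger level is no measure of the enzyme's activity.

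Alas2, the erythroid enzyme of the first step, was at 2283, 2248 and 2273 TPM in control and at 2170, 2174 and 2150 TPM with SA. All SA values were lower (log2 fold change -0.07 ± 0.02, adjusted p 0.0110). Alas1, the form found in other tissues, was 1.48-fold higher at a far lower level, with 3.08, 2.77 and 2.83 TPM in control against 3.75, 4.42 and 4.63 TPM with SA (log2 fold change 0.43 ± 0.10, adjusted p 0.00757). Ppox, which oxidises protoporphyrinogen, rose from 216 ± 4.88 to 250 ± 3.69 TPM (0.21 on the log2 scale, adjusted p 6.68e-05). Urod, an enzyme of the middle steps, and Fech, of the last, were lower by little, with log2 fold changes of -0.08 and -0.06. The Fech call did not hold without SA replicate 1, 2 or 3 or without control replicate 1 or 3 (adjusted p between 0.0735 and 0.119). Uros and Cpox did not pass the test, with log2 fold changes of 0.05 and -0.04.

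Some genes that carry heme and its precursors had larger changes. Of 18 genes for heme and porphyrin transport and partners of the enzymes, 3 were higher (16.7%, near the 15.4% of all tested genes) and 6 lower (33.3%, against 6.74%). Slc48a1, a transporter that moves heme out of lysosomes, was at 134, 130 and 137 TPM in control and at 90.6, 90.1 and 88.8 TPM with SA. The groups did not overlap, at 1.49-fold lower with SA (log2 fold change -0.57 ± 0.02, adjusted p 4.53e-08). Flvcr1, a heme exporter, fell from 44.8 ± 2.16 to 33.5 ± 2.52 TPM and Abcg2, which exports porphyrins, from 58.6 ± 0.298 to 49.0 ± 1.48 TPM. Tspo fell from 131 ± 3.66 to 101 ± 2.82 TPM. Slc25a38, the mitochondrial glycine carrier of heme synthesis, was at 255, 251 and 252 TPM in control and at 271, 288 and 273 TPM with SA, higher in every SA library (log2 fold change 0.13, adjusted p 0.00431). Tmem14c, needed for protoporphyrinogen import into mitochondria, rose from 5434 ± 110 to 5969 ± 77.7 TPM (0.14 on the log2 scale, adjusted p 0.00102). With median-of-ratios scaling 1 of the 3 rises and all 6 falls were called, and the adjusted p of Slc25a38 was 0.0635.

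Globin messages fell. Of the 13 listed globin genes 2 symbols were not found, and 11 passed the filter over the 12 libraries. Of these 5 were lower with SA (45.5%, against 6.74% of all tested genes) and none higher. The median log2 fold change was -0.83. Hbb-bh0 and Hbb-bh2 did not reach 1 TPM in 3 of these 6 libraries and passed the filter through the DTPA libraries, with 1 and 5 recovered reads in control and 1 and 0 with SA. The adult β-globin Hbb-bs was at 18083, 20655 and 18965 TPM in control and at 7506, 7242 and 7609 TPM with SA. The SA libraries held 2.58-fold less, well outside the control range (log2 fold change -1.37 ± 0.06, adjusted p 7.26e-08). The adult α-globin Hba-a1 was at 10940, 11881 and 11946 TPM in control and at 8690, 8425 and 8083 TPM with SA. It was 1.38-fold lower, with no overlap (log2 fold change -0.46 ± 0.04, adjusted p 1.23e-05).

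The embryonic β-type globins fell most by ratio. Hbb-bh1 was at 80.1, 80.3 and 79.1 TPM in control and at 11.9, 12.1 and 9.48 TPM with SA, 7.16-fold lower (log2 fold change -2.74 ± 0.09, adjusted p 3.14e-08). Hbb-y, whose promoter is shown above (gene at chr7:103851749-103853216, minus strand), was at 15.5, 15.97 and 13.3 TPM in control and at 0.460, 0.443 and 0.725 TPM with SA. No SA library came near the control level, at a log2 fold change of -3.37 ± 0.22 (adjusted p 2.23e-06). The SA values of Hbb-y rest on 2, 2 and 3 recovered reads, 7 in all against 207 in control, a ratio of 28.1 per depth with an exact 95% interval of 13.4 to 70.8 that covers counting error only. The embryonic α-type globin Hba-x was at 8.67, 7.56 and 7.32 TPM in control and at 3.11, 3.14 and 1.47 TPM with SA (log2 fold change -1.35 ± 0.19, adjusted p 0.000428).

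The other globin genes did not pass. Hbb-bt, nearly identical to Hbb-bs, was at 2181, 3329 and 2541 TPM in control and at 725, 3230 and 1140 TPM with SA. SA replicate 2 lay within the control range and the other SA libraries below it, and reads of these copies may have been split differently between libraries. Hba-a2, a near copy of Hba-a1, overlapped between groups at 3345 ± 402 and 2913 ± 90.9 TPM, so the fold of each copy is uncertain. Hbq1a, Hbq1b, Hbb-bh2 and Hbb-bh0 did not pass, and Hbb-bh2 was listed at 0 in all 3 SA libraries and below 1 TPM in control.

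**Figure D2:**
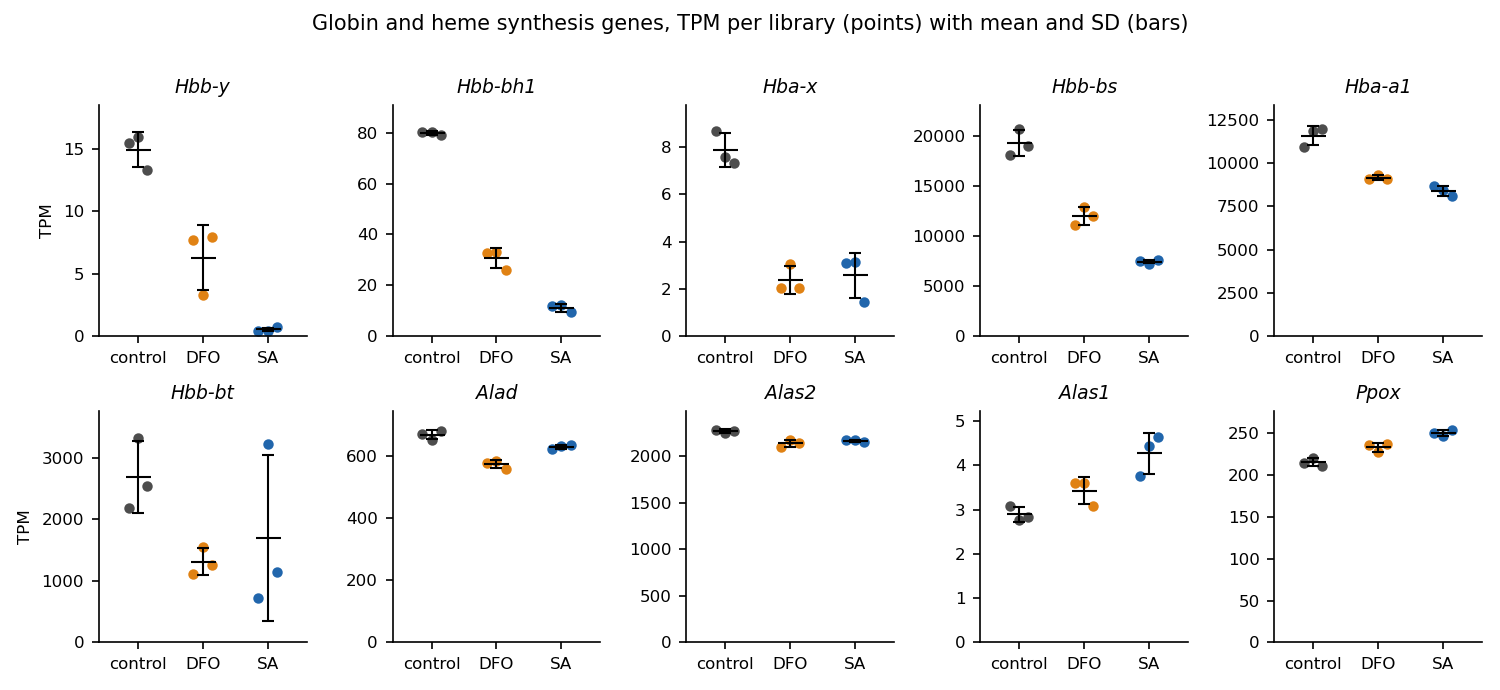
TPM (y axes, linear and starting at 0) of 6 globin and 4 heme synthesis genes in the control, DFO and SA libraries. Points are libraries, the long dash is the mean and the bars are the SD of 3 libraries. The 3 SA values of Hbb-y, Hbb-bh1 and Hbb-bs lie below all control and DFO values, while Alad and Alas2 differ little between groups.

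Other genes of red cell maturation did not move in 1 direction. Of 36 tested members of the maturation list, 7 were higher (19.4%, near the 15.4% of all tested genes) and 11 lower (30.6%, against 6.74%), with a median log2 fold change of -0.003. Median-of-ratios scaling gave 5 and 15. Ube2o, a ubiquitin ligase that clears proteins in maturing red cells, fell from 96.1 ± 1.52 to 58.2 ± 2.81 TPM (-0.72 on the log2 scale). Slc4a1, the band 3 anion exchanger, was at 747, 681 and 725 TPM in control and at 522, 520 and 520 TPM with SA (log2 fold change -0.46, adjusted p 3.98e-05). Tmod1 and Rhag, of the membrane skeleton and the Rh complex, also fell, with log2 fold changes of -0.59 and -0.32. Fn3k rose from 52.4 ± 0.831 to 75.7 ± 2.17 TPM (0.52 on the log2 scale, adjusted p 1.02e-05) and Mfsd2b from 79.3 ± 2.04 to 93.4 ± 2.66 TPM.

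Among regulators, Gata1 was at 2535, 2422 and 2546 TPM in control and at 2099, 2086 and 2193 TPM with SA. All SA values were lower, by a log2 fold change of -0.23 ± 0.03 (adjusted p 0.000116). The control cells carry the GATA1 fusion too, and the counts cannot tell transcripts of the fusion from others. Of 12 tested progenitor genes that GATA1 is known to repress, 3 were higher (2 with median-of-ratios scaling) and 1 lower. These are shares of 25% and 8.33%, against 15.4% and 6.74% of all tested genes. Kit was at 5.94, 5.95 and 5.60 TPM in control and at 9.66, 9.29 and 9.06 TPM with SA, 1.60-fold higher (log2 fold change 0.60 ± 0.05, adjusted p 5.33e-06). Gata2 rose from 26.6 ± 1.29 to 35.9 ± 1.5002 TPM (0.42 on the log2 scale, adjusted p 0.000293). Myb and Myc did not pass and overlapped between groups. Of 18 erythroid transcription factors and cofactors 7 were higher (38.9%, against 15.4% of all tested genes) and 3 lower (16.7%, against 6.74%). With median-of-ratios scaling the counts were 6 and 6, so the list had no clear direction. Lmo2, Ldb1 and Nfe2, with log2 fold changes of 0.24, 0.22 and 0.24, were higher, as was Bcl11a, the repressor of embryonic and fetal globins, from 6.22 ± 0.190 to 8.34 ± 0.375 TPM (0.37 ± 0.06 on the log2 scale, adjusted p 0.000951). Mafg, a small MAF partner of NRF2 and BACH1, fell from 111 ± 0.716 to 92.0 ± 1.97 TPM. Klf1 did not pass (log2 fold change -0.06, adjusted p 0.152).

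The transcription factors of the ATF4 circuit rose. Of 15 tested genes from the eIF2α kinases to the factors downstream of ATF4, 7 were higher (Atf4, Atf5, Ddit3, Cebpb, Cebpg, Trib3 and Nupr1) and 1 was lower. These are shares of 46.7% and 6.67%, against 15.4% and 6.74% of all tested genes. The lower gene was Eif2ak1, which encodes HRI, at 487, 475 and 485 TPM in control and 454, 467 and 454 TPM with SA (log2 fold change -0.07 ± 0.02, adjusted p 0.00877). The other eIF2α kinases (Eif2ak2, Eif2ak3 and Eif2ak4), the mitochondrial stress relay Dele1 and the phosphatase subunits Ppp1r15a and Ppp1r15b did not pass, with log2 fold changes between -0.12 and 0.07. Median-of-ratios scaling left 7 genes higher and called 3 lower, Eif2ak1, Eif2ak4 and the eIF2α subunit gene Eif2s1. Messenger levels do not measure kinase activity or translation.

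Atf4 was at 105, 99.0 and 96.1 TPM in control and at 145, 151 and 152 TPM with SA. Every SA library lay above every control library (log2 fold change 0.58 ± 0.03, adjusted p 6.79e-07). Atf5, a related factor, was at 254, 249 and 247 TPM in control and at 504, 525 and 525 TPM with SA, a 2.07-fold rise (log2 fold change 1.05 ± 0.03, adjusted p 5.50e-09). Ddit3, which encodes CHOP, was at 328, 341 and 327 TPM in control and at 547, 553 and 545 TPM with SA. The groups did not overlap, at 1.65-fold (log2 fold change 0.72 ± 0.02, adjusted p 5.50e-09). Trib3, a pseudokinase that binds ATF4 and CHOP, was at 10.5, 9.70 and 12.8 TPM in control and at 26.9, 25.8 and 25.5 TPM with SA, 2.37-fold higher (log2 fold change 1.18 ± 0.10, adjusted p 9.41e-06). Cebpg, a dimer partner of ATF4, rose from 31.0 ± 0.503 to 52.8 ± 1.54 TPM and Cebpb from 3.16 ± 0.516 to 5.99 ± 1.61 TPM, with log2 fold changes of 0.75 and 0.73. Nupr1 rose from 17.7 ± 0.998 to 25.2 ± 0.648 TPM. Atf3 was listed at 0 in all 6 libraries.

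**Figure D3:**
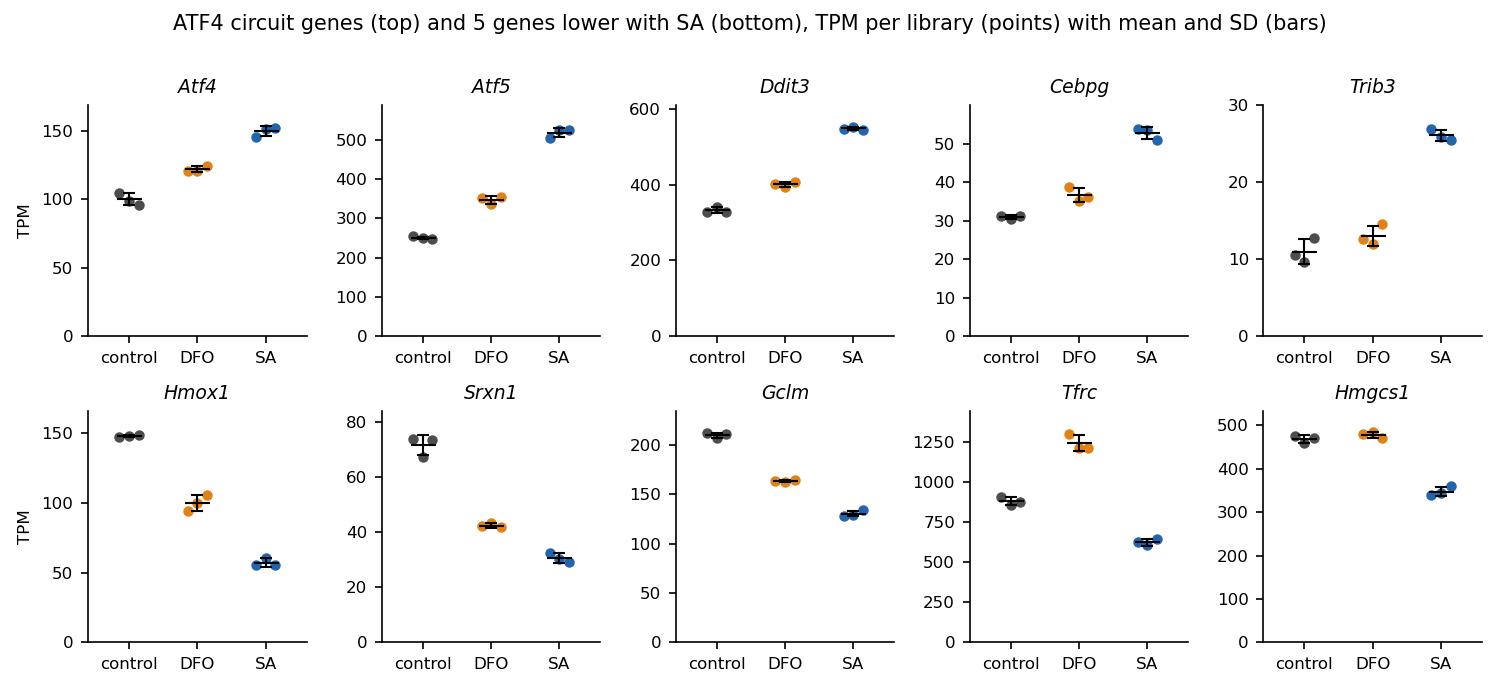
TPM (y axes, linear and starting at 0) of 5 genes of the ATF4 circuit (top) and of Hmox1, Srxn1, Gclm, Tfrc and Hmgcs1 (bottom) in the control, DFO and SA libraries. Points are libraries, the long dash is the mean and the bars are the SD of 3 libraries. The top genes are highest with SA and the bottom genes lowest with SA, and Tfrc is highest with DFO.

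Most tested ATF4 target genes were higher too. Of 39 listed targets 24 could be tested, and 17 were higher (70.8%, against 15.4% of all tested genes) and none lower. The median log2 fold change was 0.40, against 0.05 over all tested genes. In 18 of the 24 every SA library lay above every control library, against 26.8% of all tested genes. The other 15 targets were below 1 TPM in all 6 libraries, 9 of them at 0, among them Phgdh and Chac1. The count of 17 higher was the same with median-of-ratios scaling, where 1 member was called lower. Some members are shared with other lists described here: Atf5, Trib3, Ddit3 and Nupr1 belong to the circuit, and several transporters and serine enzymes to the lists below. Of the targets outside the circuit, Sesn2, which restrains mTORC1 when leucine is short, was at 115, 111 and 116 TPM in control and at 173, 174 and 169 TPM with SA. It rose 1.51-fold, beyond the spread of either group (log2 fold change 0.59 ± 0.02, adjusted p 6.06e-08). Aldh18a1, of proline synthesis, rose from 76.4 ± 3.50 to 104 ± 3.33 TPM, Xpot, the tRNA exporter, from 94.8 ± 3.15 to 122 ± 4.50 TPM, and Asns, asparagine synthetase, from 423 ± 4.66 to 494 ± 6.32 TPM. Herpud1, whose promoter is shown above, was at 55.7, 52.7 and 55.8 TPM in control and at 65.4, 74.6 and 71.5 TPM with SA (log2 fold change 0.36 ± 0.05, adjusted p 0.000289). Ddit4, Eif4ebp1, Ero1l and Got1 did not pass, with log2 fold changes of -0.16, -0.07, -0.08 and 0.07.

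Genes that load tRNAs in the cytosol were mostly higher. Of 20 cytosolic aminoacyl-tRNA synthetase genes 12 were higher and 2 lower (11 and 4 with median-of-ratios scaling), with a median log2 fold change of 0.18. The shares were 60% and 10%, against 15.4% and 6.74% of all tested genes. Sars was at 156, 148 and 154 TPM in control and at 209, 219 and 218 TPM with SA. The groups did not overlap (log2 fold change 0.49 ± 0.03, adjusted p 6.79e-07). Cars, Iars, Gars and Vars followed with log2 fold changes of 0.45, 0.40, 0.36 and 0.35. Rars fell from 132 ± 6.62 to 113 ± 2.86 TPM and Qars from 83.1 ± 1.22 to 78.8 ± 0.487 TPM. The Qars call did not hold without SA replicate 1, 2 or 3 or control replicate 1 or 3 (adjusted p between 0.0704 and 0.112). Farsa, Farsb, Kars, Hars, Dars and Lars did not pass. Of the 17 mitochondrial synthetases 2 were higher and none lower, Iars2 and Wars2 with log2 fold changes of 0.17 and 0.20, a share close to the 15.4% of all genes. Median-of-ratios scaling gave 1 higher and 1 lower, and the Iars2 call was lost there (adjusted p 0.0540) and with trimmed-mean scaling (0.0580). The Iars2 call did not hold without SA replicate 1 or control replicate 2 (adjusted p 0.05835 and 0.0559).

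Amino acid transporters moved in part. Of 17 tested genes 7 were higher (41.2%, against 15.4% of all tested genes) and 2 lower (11.8%, against 6.74%). The counts were 5 and 3 under median-of-ratios scaling. The chains of the leucine exchanger rose together: Slc7a5 was at 732, 722 and 740 TPM in control and at 1013, 1051 and 1036 TPM with SA. Slc3a2, its partner chain, was at 249, 244 and 255 TPM in control and at 345, 347 and 350 TPM with SA. Neither gene overlapped between groups, and the log2 fold changes were 0.50 ± 0.03 and 0.48 ± 0.02 (adjusted p 1.37e-06 and 7.01e-08). The glutamine and alanine carrier Slc38a2 rose from 36.5 ± 1.11 to 52.2 ± 2.46 TPM, the arginine carrier Slc7a1 from 15.4 ± 0.879 to 21.8 ± 0.563 TPM, and Slc1a4, a carrier of alanine and serine at low level, from 0.662 ± 0.158 to 1.73 ± 0.160 TPM. Slc16a10 and Slc38a5 were lower, with log2 fold changes of -0.19 and -0.07, and the Slc38a5 call did not hold without SA replicate 1 or 3 or control replicate 2 or 3 (adjusted p between 0.0508 and 0.0680). The cystine carrier Slc7a11 stayed below 1 TPM. Of 18 serine, glycine and one-carbon enzymes 5 were higher and 5 lower, 27.8% each, against 15.4% and 6.74% of all tested genes. Psat1, Shmt2 and Mthfd2, listed also as ATF4 targets, rose with log2 fold changes of 0.37, 0.23 and 0.47. Amt, of the glycine cleavage system, rose from 3.36 ± 0.335 to 6.30 ± 1.00 TPM. Mthfd1l and Mat2a fell, with log2 fold changes of -0.41 and -0.18.

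**Figure D4:**
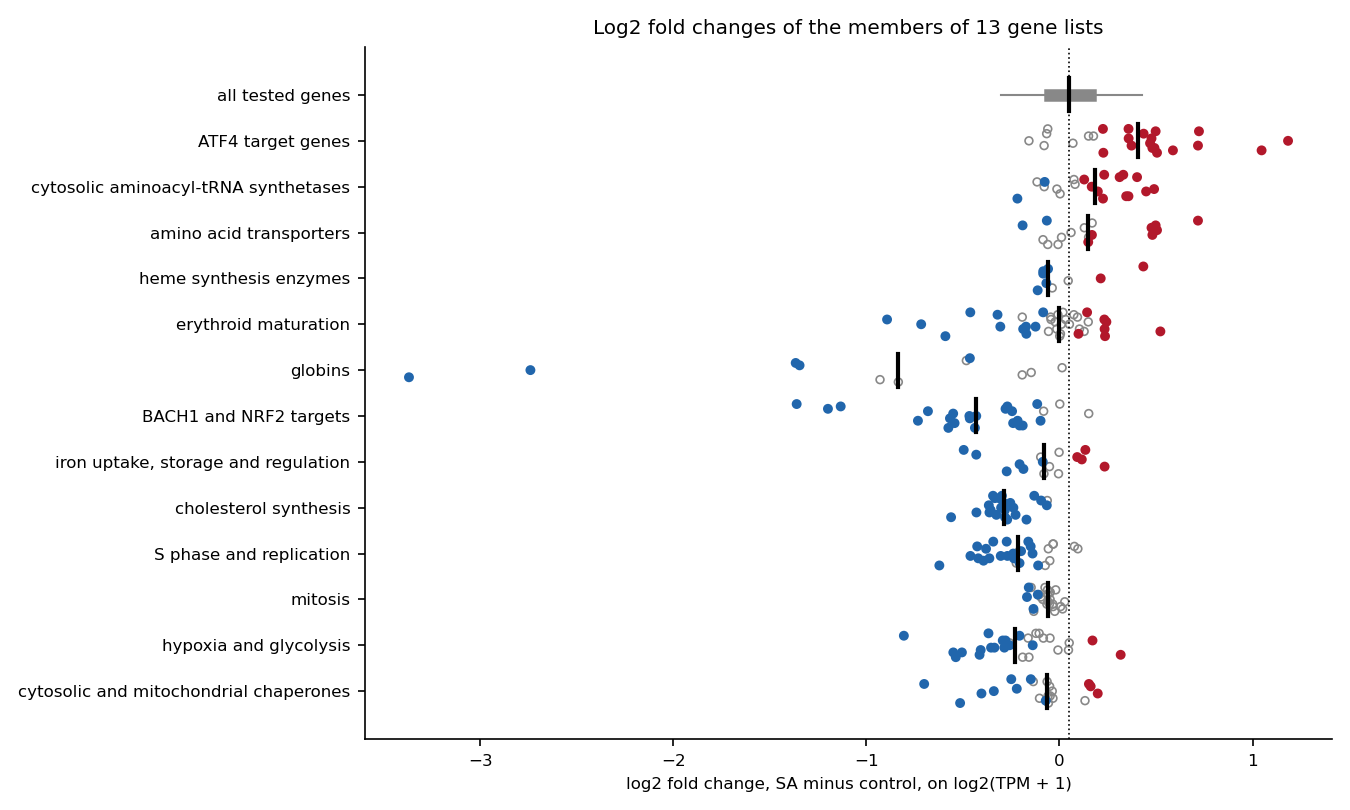
Log2 fold changes (x axis, SA minus control, on log2(TPM + 1)) of the tested members of 13 gene lists. Filled red and blue points passed the test higher and lower, open grey points did not pass, black bars are list medians and the dotted line is the median of all tested genes (0.05), whose middle 90% and 50% of values are the thin and thick grey lines. Medians are 0.40 for ATF4 targets, -0.43 for BACH1 and NRF2 targets, -0.29 for cholesterol synthesis and -0.83 for globins.

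Genes repressed by BACH1 and induced by NRF2 fell nearly throughout. The list also holds the regulators Bach1, Nfe2l2 and Keap1. Of its 25 tested members, 22 were lower (88%, against 6.74% of all tested genes), Nfe2l2 among them, and none was higher. The median log2 fold change was -0.43. Median-of-ratios scaling gave 22 lower as well. Hmox1, the heme oxygenase that breaks heme down and a textbook BACH1 target (chr8:75093621-75100589, plus strand), was at 147, 148 and 149 TPM in control and at 55.2, 60.7 and 55.2 TPM with SA. It was 2.59-fold lower with no overlap (log2 fold change -1.36 ± 0.06, adjusted p 5.90e-08). Srxn1, sulfiredoxin, was at 73.9, 67.4 and 73.6 TPM in control and at 32.6, 30.3 and 29.1 TPM with SA (log2 fold change -1.20 ± 0.04, adjusted p 3.94e-08). Me1, malic enzyme, was at 14.7, 15.6 and 16.8 TPM in control and at 6.32, 6.41 and 7.11 TPM with SA (log2 fold change -1.13 ± 0.09, adjusted p 6.22e-06). All SA libraries lay below all controls for both.

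The fall reached several branches of antioxidant metabolism. For glutathione, Gclm, the modifier of its limiting enzyme, was at 212, 206 and 210 TPM in control and at 128, 129 and 133 TPM with SA (log2 fold change -0.68 ± 0.03, adjusted p 3.94e-08). The catalytic part Gclc fell from 122 ± 2.94 to 89.8 ± 2.40 TPM and glutathione reductase Gsr from 82.4 ± 6.55 to 54.9 ± 2.07 TPM. For NADPH, G6pdx and Pgd of the pentose phosphate route fell from 194 ± 6.19 to 133 ± 2.87 and from 77.4 ± 4.81 to 52.4 ± 0.845 TPM, and Taldo1 and Tkt fell less, with log2 fold changes of -0.22 and -0.12. For peroxides and quinones, catalase (Cat) fell from 1025 ± 7.52 to 741 ± 8.61 TPM, Txnrd1 from 91.4 ± 2.51 to 66.0 ± 1.5023 TPM, Nqo1 from 38.1 ± 2.80 to 22.5 ± 0.742 TPM and Prdx1 from 538 ± 15.4 to 443 ± 10.4 TPM. Blvrb, a biliverdin reductase, fell from 2542 ± 60.2 to 2145 ± 57.4 TPM. The levels of the regulators differed less: Bach1 was at 403, 397 and 393 TPM in control and at 395, 392 and 407 TPM with SA, with overlap and a log2 fold change of 0.00 ± 0.02 (adjusted p 0.973). Nfe2l2, which encodes NRF2, was lower by little (log2 fold change -0.10, adjusted p 0.0128, and 0.0531 without SA replicate 2). Keap1 did not pass.

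Iron genes were split. Of 15 tested genes of iron uptake, storage and regulation, 4 were higher (26.7%, against 15.4% of all tested genes) and 6 lower (40%, against 6.74%). The counts were 1 and 7 under median-of-ratios scaling. Tfrc, the transferrin receptor, whose message iron-regulatory proteins stabilise when iron is scarce, was at 909, 861 and 880 TPM in control and at 624, 606 and 648 TPM with SA. It was lower in each SA library (log2 fold change -0.50 ± 0.03, adjusted p 2.93e-06). With DFO the same gene was at 1302, 1217 and 1217 TPM, above all controls (log2 fold change 0.50, adjusted p 1.94e-05), and the direct difference of SA minus DFO was -0.99 (adjusted p 1.34e-07). The ferritin chain Ftl1 was at 27082, 25090 and 24927 TPM in control and at 18805, 19205 and 19143 TPM with SA (log2 fold change -0.43 ± 0.03, adjusted p 1.95e-06), and reads of its pseudogene Ftl1-ps1 may not be separable from it. Fth1 fell from 2302 ± 54.7 to 1995 ± 22.5 TPM (-0.21 on the log2 scale), and both ferritin genes belong to the BACH1 and NRF2 list too. The iron exporter Slc40a1 fell from 19.2 ± 0.879 to 15.7 ± 0.671 TPM, and Ncoa4, the ferritin receptor of autophagy, rose from 230 ± 7.05 to 252 ± 5.98 TPM. Of 26 genes of iron-sulfur cluster assembly 6 were higher (23.1%, against 15.4% of all tested genes) and 1 lower (3.85%, against 6.74%), with Nubpl, Nfu1 and Hscb at log2 fold changes of 0.35, 0.32 and 0.30, and 4 and 3 under median-of-ratios scaling. The Nubpl call did not hold without SA replicate 2 (adjusted p 0.0532). Of 17 metallothionein and zinc transport genes 2 were higher (11.8%, below the 15.4% of all tested genes) and 3 lower (17.6%, against 6.74%). Median-of-ratios scaling called none higher and 3 lower. Mt1 fell by 0.11 on the log2 scale, with adjusted p between 0.0559 and 0.0632 without SA replicate 3, control replicate 2 or control replicate 3, and Mt2 and the importer Slc39a10 did not pass (log2 fold changes 0.02 and -0.21).

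Nearly every gene of cholesterol synthesis was lower. Of 23 tested genes 22 were lower (95.7%, against 6.74% of all tested genes) and none was higher. The median log2 fold change was -0.29. All 23 had every SA library below every control library, against 11.7% of all tested genes. Idi1, isopentenyl diphosphate isomerase, was at 168, 162 and 163 TPM in control and at 112, 105 and 115 TPM with SA (log2 fold change -0.56 ± 0.04, adjusted p 2.45e-06). Hmgcs1, which makes HMG-CoA, was at 477, 459 and 470 TPM in control and at 340, 343 and 359 TPM with SA (log2 fold change -0.43 ± 0.03, adjusted p 1.19e-06). Both were lower in all SA libraries. Lss, which closes the sterol rings, fell from 128 ± 1.67 to 99.2 ± 0.718 TPM. Ebp did not pass (log2 fold change -0.06, adjusted p 0.0991). Soat2, which esterifies cholesterol, moved the other way, from 16.6, 19.6 and 19.8 TPM in control to 34.9, 38.9 and 41.9 TPM with SA, 2.07-fold higher (log2 fold change 1.01 ± 0.07, adjusted p 3.51e-06).

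Genes of DNA replication were lower and those of mitosis mostly did not pass. Of 28 S phase genes 19 were lower (67.9%, against 6.74% of all tested genes) and none higher. Their median log2 fold change was -0.22. Mcm5, of the replicative helicase, was at 122, 115 and 121 TPM in control and at 79.7, 77.8 and 74.2 TPM with SA. Its SA values were all lower, 1.55-fold (log2 fold change -0.62 ± 0.04, adjusted p 3.57e-06). Mcm6, Rrm2 and Pcna fell with log2 fold changes of -0.46, -0.43 and -0.36. Of 25 mitosis genes 4 were lower (16%, against 6.74% of all tested genes) and none higher, with a median log2 fold change of -0.06. With median-of-ratios scaling 10 of the 25 were lower, where 13.6% of all tested genes were. The log2 fold change was negative in 22 of the 25, against 4368 of all 11920 tested genes. Mki67, a marker of proliferation, was at 217 ± 6.86 TPM in control and 194 ± 5.51 TPM with SA. No cell counts or cycle profiles were used here.

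Chaperone genes fell in part. Their list spans the cytosol and the mitochondria and holds the transcription factors Hsf1 and Hsf2 too. Of its 21 tested genes 8 were lower (38.1%, against 6.74% of all tested genes) and 3 higher (14.3%, near the 15.4% of all). Median-of-ratios scaling gave 15 and 3. Hsph1, an exchange factor for HSP70, was at 63.3, 59.1 and 62.3 TPM in control and at 39.0, 35.0 and 38.6 TPM with SA (log2 fold change -0.70 ± 0.04, adjusted p 1.58e-06). Hsp90aa1 and Hsp90ab1 fell from 403 ± 15.8 to 282 ± 11.7 TPM and from 599 ± 16.8 to 452 ± 8.88 TPM, and Dnajb1 from 84.4 ± 2.88 to 66.5 ± 1.34 TPM. The mitochondrial Hspa9, Dnaja3 and Lonp1 rose, with log2 fold changes of 0.16, 0.20 and 0.15. Of 21 endoplasmic reticulum chaperone and unfolded protein response genes 3 were higher (14.3%, near the share of all tested genes) and 8 lower (38.1%). Among the lower were Hspa5 (BiP) with a log2 fold change of -0.20 and Xbp1 with -0.15. Of 19 p53 targets 3 were higher (15.8%, near the 15.4% of all tested genes) and 8 lower (42.1%, against 6.74%). Cdkn1a, the cell cycle inhibitor p21, fell from 196 ± 4.79 to 147 ± 5.41 TPM (-0.41 ± 0.03 on the log2 scale, adjusted p 5.87e-06).

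Hypoxia and glycolysis genes were lower, but their count hung on the choice of libraries. Of 28 genes 15 were lower (53.6%, against 6.74% of all tested genes) and 2 higher (7.14%, against 15.4%). The median log2 fold change was -0.23. Bnip3, a mitophagy receptor induced by hypoxia, was at 221, 284 and 254 TPM in control and at 159, 196 and 162 TPM with SA (log2 fold change -0.55 ± 0.11, adjusted p 0.00516). Ldha, lactate dehydrogenase, was at 881, 1162 and 1000 TPM in control and at 699, 844 and 733 TPM with SA. In both genes replicate 2 was the highest of its group. Ldha was lower, at -0.41 on the log2 scale (adjusted p 0.0205), and its call did not hold without SA replicate 1 or 3 or control replicate 2 or 3 (adjusted p between 0.0511 and 0.0750). The count of lower genes was 6 without SA replicate 1, 7 without SA replicate 3, 6 without control replicate 2, 8 without control replicate 3, and 9 with no filter on low genes. Vegfa fell from 8.02 ± 1.03 to 4.18 ± 0.859 TPM (-0.81 ± 0.13 on the log2 scale, adjusted p 0.00132). Pfkm rose from 542 ± 1.15 to 675 ± 5.37 TPM and Hk1 from 666 ± 15.5 to 750 ± 13.3 TPM.

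Lists with no clear direction included autophagy and mitophagy, with 6 of 24 higher and 3 lower (3 and 6 with median-of-ratios scaling). The shares were 25% and 12.5%, against 15.4% and 6.74% of all tested genes. Ribosome biogenesis was another, with 3 of 25 higher (12%) and 1 lower (4%), both below the shares of all tested genes. Npm1, the nucleolar protein nucleophosmin, was at 544, 535 and 546 TPM in control and at 798, 773 and 785 TPM with SA, a 1.45-fold rise with no overlap (log2 fold change 0.54 ± 0.02, adjusted p 2.82e-08). In autophagy, Calcoco1 rose from 109 ± 0.583 to 135 ± 4.24 TPM and Gabarapl1 fell from 403 ± 17.0 to 341 ± 3.20 TPM.

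Among the genes with the largest changes were several outside these lists. Hsd17b14, a steroid dehydrogenase, rose from 12.6 ± 1.63 to 26.1 ± 1.03 TPM (1.01 ± 0.14 on the log2 scale), and Msh5, of meiotic recombination, from 11.4 ± 0.840 to 20.3 ± 1.46 TPM. The homeobox gene Hoxc5 was at 37.2, 38.8 and 36.7 TPM in control and at 69.7, 74.7 and 70.5 TPM with SA, 1.91-fold higher (log2 fold change 0.91 ± 0.06, adjusted p 2.69e-06). Asb17, Tac2, H2bc8 and Sec14l2 rose with log2 fold changes between 0.73 and 0.82 from means of 2.81 to 4.23 TPM. The ubiquitin ligase subunit gene Fbxo30 was at 90.6, 89.1 and 89.4 TPM in control and at 46.9, 46.7 and 51.6 TPM with SA, 1.85-fold lower (log2 fold change -0.88 ± 0.04, adjusted p 5.90e-08). Scamp5, a secretory carrier membrane protein, fell from 12.1 ± 0.623 to 5.62 ± 1.09 TPM (-1.002 ± 0.09 on the log2 scale). Ndufa4l2, a mitochondrial protein induced by hypoxia, was at 15.5, 22.3 and 16.2 TPM in control and at 4.92, 8.06 and 4.19 TPM with SA (log2 fold change -1.52 ± 0.25, adjusted p 0.00138). The small nucleolar RNA genes Snord89 and Snord49b also fell (log2 fold changes -1.11 and -2.06), though libraries of polyadenylated RNA sample such short genes poorly. Snord49b rested on 21 recovered reads in control and 5 with SA, and its call did not hold without SA replicate 1, control replicate 1 or control replicate 3 (adjusted p 0.0537, 0.0658 and 0.111). The ribosomal pseudogenes Rpl7a-ps3 and Rpl30-ps1 rose (log2 fold changes 0.88 and 0.72) and share reads with their parent genes, and neither call held without SA replicate 2 (adjusted p 0.140 and 0.0797), SA replicate 3 (0.0563 and 0.08875) or control replicate 3 (0.0961 and 0.0831); that of Rpl7a-ps3 was lost without control replicates 1 and 2 too (0.0717 and 0.139).

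The SA and DFO groups were compared directly, since the labels aim them at different steps of heme production, SA at ALAD and DFO at the iron supply. In the SA minus DFO contrast 1612 genes passed (13.5%), 752 higher (6.31%) and 860 lower (7.21%) with SA. The values of SA minus control and DFO minus control are set side by side here, and they share the control libraries. Of the ATF4 targets 13 of 24 were higher with SA than with DFO and none lower. Against control, 12 of the 24 were higher with DFO and none lower. Over all 11920 tested genes, DFO against control gave 1000 higher and 272 lower. Atf5 stood at 250 ± 3.53 TPM in control, 346 ± 9.63 with DFO and 518 ± 11.9 with SA, and SA exceeded DFO by 0.58 on the log2 scale (adjusted p 1.10e-06). Trib3 stood at 11.0 ± 1.60, 13.1 ± 1.29 and 26.1 ± 0.731 TPM in the same order, and its difference from DFO was 0.95 (adjusted p 9.03e-05). Of the BACH1 and NRF2 list 19 of 25 were lower with SA than with DFO and none higher. Against control, 18 of the 25 were lower with DFO and none higher. Hmox1 stood at 148 ± 0.718, 99.9 ± 5.61 and 57.1 ± 3.18 TPM (SA minus DFO -0.80, adjusted p 5.93e-06), while Nqo1, at 21.1 ± 0.345 TPM with DFO and 22.5 ± 0.742 with SA, did not differ detectably (adjusted p 0.638).

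Over all tested genes, 6.31% were higher and 7.21% lower with SA than with DFO. DFO against control gave 1000 higher and 272 lower of the 11920. For the globins, 3 of 11 were lower with SA than with DFO. Against control, 6 of the 11 were lower with DFO and none higher. Hbb-bs stood at 19234 ± 1307 TPM in control, 11975 ± 898 with DFO and 7452 ± 189 with SA (SA minus DFO -0.68, adjusted p 2.53e-05). Hba-a1 did not pass in that contrast (-0.13, adjusted p 0.0614). All 23 cholesterol synthesis genes were lower with SA than with DFO. Against control, 3 of them passed higher with DFO and none lower. Hmgcs1 was at 478 ± 7.47 TPM with DFO and 348 ± 10.2 with SA (SA minus DFO -0.46, adjusted p 2.40e-06). Of 25 mitosis genes 11 were higher with SA than with DFO and none lower. Against control, 22 of the 25 were lower with DFO and 4 with SA, and none was higher with either. Of 19 p53 targets 12 were lower and 3 higher with SA than with DFO. Against control, 8 of the 19 were higher with DFO and none lower, while 3 were higher and 8 lower with SA. Of 21 genes on the chaperone list 11 were lower and 2 higher with SA than with DFO. Against control, 2 of these 21 were higher and 2 lower with DFO. Nfe2 was at 475 ± 6.77 TPM with DFO and 622 ± 13.3 with SA (SA minus DFO 0.39, adjusted p 1.31e-06), and Gata2 at 27.3 ± 0.482 and 35.9 ± 1.5002 TPM (0.38, adjusted p 0.00105). Slc4a1 was higher with SA than with DFO (0.17, adjusted p 0.0301). The heme synthesis list had 3 of 9 genes higher with SA than with DFO, Alad among them (0.13, adjusted p 0.00533). Against control, 1 of the 9 was higher and 4 were lower with DFO.

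**Figure D5:**
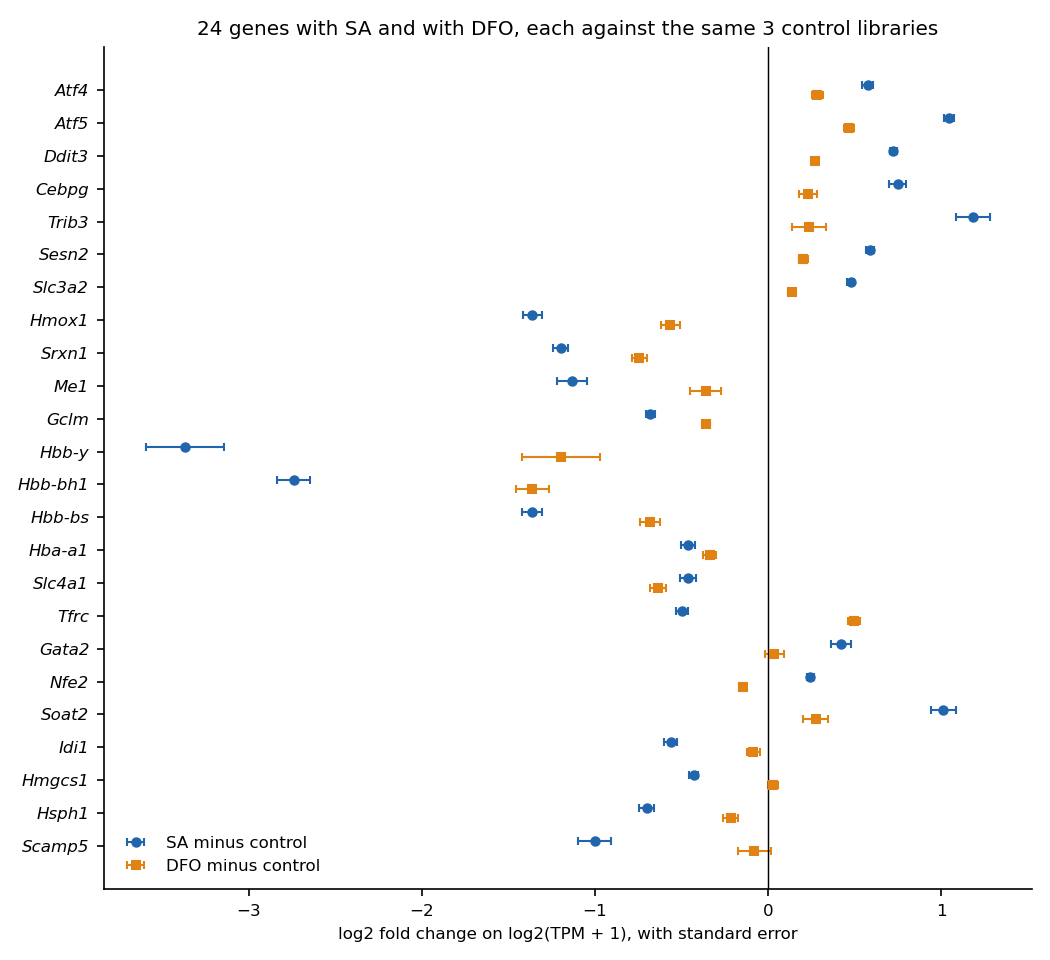
Log2 fold changes on log2(TPM + 1) (x axis) with standard errors for 24 genes, as SA minus control (blue circles) and DFO minus control (orange squares). Both use the same 3 control libraries, so the points of a gene are not independent. Tfrc is at -0.50 with SA and 0.50 with DFO, and Hmgcs1 at -0.43 with SA and 0.03 with DFO.

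DTPA-treated libraries stood far from both groups. The first principal component held 61.4% of the variance and set them apart, and 7994 genes (67.1%) passed between SA and DTPA, 47.0% higher and 20.1% lower with SA. On the second component, with 6.55% of the variance, control libraries lay between 10.7 and 15.2, DFO libraries between 1.34 and 3.11 and SA libraries between -17.0 and -14.0.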

How the data were processed

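The labels' protocols describe stranded libraries of polyadenylated RNA from G1E-ER4 cells. The submitters' processing notes name Trimmomatic 0.33, FastQC, HISAT2 2.1.0, featureCounts, edgeR and build mm10. Their settings and the annotation were not stated in the sources used. TPM values, 1 table per library, are what the authors deposited. Since TPM has a fixed sum, a shift of abundant genes moves all others. Of 55487 rows, 234 carry 1 of 114 repeated symbols, and of these only the row with the highest mean was taken under the symbol. Read totals (19861984 to 24336691 per library) were recovered from the steps of TPM times GENCODE M21 exon length; 98.8% to 99.0% of values up to 200 reads were whole within 0.1 read. No 2 replicates held the same values.

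The 11920 genes that reached 1 TPM in 3 or more libraries were fitted as log2(TPM + 1) with limma 3.58.1 (R 4.3.3) over all 12 libraries, 1 mean per group, with a mean-variance trend. Benjamini-Hochberg adjustment of the two-sided p-values covered all of them, with 0.05 as threshold. In simulated data with 50 genes per size among 11920, the fit called 56% of 1.2-fold, 86% of 1.5-fold and 100% of 2-fold and 4-fold changes, and 0.0853% of unchanged genes. The changed genes were drawn from those above 5 TPM in control, so these shares do not cover genes at lower levels. Errors were normal and independent, and far fewer genes were changed than were called in the data. Named genes were the 15 largest rises and falls among called genes with non-overlapping groups and a mean of at least 5 TPM, up to 4 called members per list, and all heme enzymes, ATF4 circuit genes and globins, plus Tfrc, Hmox1, Bach1, Ftl1, Fth1, Gata1, Mt1, Mt2 and Slc39a10; 56 further list members were named after their values were seen, to show the range of a list. Predicted gene models were not named, and a few genes are not reported here. The comparison, the 28 lists, the rule and the alternatives were chosen with earlier results of these data known. No set test was run. Alternatives were other pseudocounts, filters, scalings, a robust step, only the 6 libraries, a replicate block, each library left out and a fold threshold; voom on the recovered reads was added after seeing the data. Python 3.11.15 was used for tables and plots.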

Additional observations from a re-analysis of the deposited data

How the results depend on the processing

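The balance of calls over all genes turned over with the scaling, from 69.6% higher to 40.9% with median-of-ratios scaling, and in the autophagy list from 6 higher and 3 lower to 3 and 6. No gene that passed, among those named, changed the sign of its log2 fold change under any alternative. Of 160 genes chosen by the rule or named in the text that passed, 130 passed under each of the 17 alternatives that gave them a value. Median-of-ratios scaling lost 8, no filter lost 14, and leaving out 1 library lost between 11 and 18. The count of genes higher with SA fell from 1839 to 1125 with median-of-ratios and 1110 with trimmed-mean scaling, and that of genes lower rose from 804 to 1624 and 1647. Asking also for a log2 fold change of 1 or more in size left 41 genes (16 higher, 25 lower), 30 in SA against DFO, 1175 in SA against DTPA, 2 ATF4 targets higher, 3 BACH1 and NRF2 targets lower, and 0 among cytosolic synthetases, hypoxia and glycolysis, cholesterol synthesis and S phase genes. The number of hypoxia and glycolysis genes lower was 15 in the main setting and 9 with no filter. Leaving out 1 library gave between 2040 and 2218 genes in all, 1397 to 1628 higher, 590 to 726 lower, 1135 to 1577 in SA against DFO and 7609 to 7957 in SA against DTPA. For the lists the ranges were 5 to 6 globins lower, 17 to 18 ATF4 targets higher, 12 to 13 synthetases higher, 21 to 22 BACH1 and NRF2 targets lower, 6 to 16 hypoxia and glycolysis genes lower, 20 to 22 cholesterol genes lower and 13 to 17 S phase genes lower. The cause of these shifts was not tested. Voom on the recovered reads called 3057 genes, 1874 higher and 1183 lower. Removing the globin genes gives no value for the globins themselves.

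Whether the replicate numbers pair the libraries could not be settled here. Deviations of control and SA libraries with the same number correlated at 0.05, 0.03 and 0.04, each SA library highest with its own number among the controls. With the replicate number as a block 2433 genes passed, 1688 higher and 745 lower, and 22 BACH1 and NRF2 targets, 18 ATF4 targets, 21 cholesterol genes and 18 S phase genes were called in the directions given. Genes near 1 TPM, such as Hbb-y with SA, rest on few reads, and smaller changes there were not detectable.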
